A study of Mus musculus with 42 samples.

Results

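Fatty acid synthesis genes were measured in 2 organs, kidney and liver, of male mice fed compounds predicted to lengthen life. The mice were UM-HET3, a laboratory stock of mixed genetic background. The 10 genes, Srebf1, Mlxipl, Acly, Acaca, Fasn, Scd1, Elovl6, Thrsp, Me1 and Pnpla3, were taken by symbol from a count table of 43629 genes. Their list was chosen with earlier results of these data known. All 10 genes were found in the table. The assay was CEL-seq, which tags and counts messenger RNA from its 3′ end, and 30 libraries came from kidney and 12 from liver.

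Mice entered the diets when 3 months old, ate them for 1 month and were 4 months old at sampling. The kidney groups received AS-703026, which inhibits MEK, at 30 ppm, ascorbyl-palmitate, a vitamin C ester that dissolves in fat, at 6.3 ppm, AZD8055, an inhibitor of the kinase mTOR, at 20 ppm, enzastaurin, an inhibitor of protein kinase C, at 75 ppm, GDC-0941, an inhibitor of PI3-kinase, at 50 ppm, and KU0063794, another mTOR inhibitor, at 10 ppm. Each compound had 4 kidney libraries, and 6 came from control littermates of the same age and sex. Liver came from mice given AS-703026, enzastaurin or GDC-0941 at the same doses, with 4 libraries each. Liver of control mice was not analysed here, so liver groups were set against each other and not against untreated animals. The submitters call the libraries biological replicates.

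Fatty acids are made in the cytosol from acetyl-CoA. ATP citrate lyase (Acly) releases acetyl-CoA from citrate, malic enzyme (Me1) supplies NADPH, acetyl-CoA carboxylase (Acaca) makes malonyl-CoA, fatty acid synthase (Fasn) builds palmitate, and Elovl6 and Scd1 lengthen and desaturate it. In liver and fat the transcription factors SREBP-1, from Srebf1, and ChREBP, from Mlxipl, switch these genes on after feeding, in response to insulin and to sugar.

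The promoters of 4 of these genes are shown because they carry different letters in the stretch before the gene start. The windows hold the 250 bases before a RefSeq start (GRCm38.p6), and 9 of the 10 genes had at least 1 window in the RefSeq table, 13 windows in all. Capitals mark matches, on either strand, to 4 short motifs. These were an SRE-type element bound by SREBP (TCACNCCAC), the E-box CACGTG, the CCAAT box CCAAT and the GC box GGGCGG. The Fasn window is at chr11:120824548-120824797 on the minus strand, the Pnpla3 window at chr15:84167566-84167815 on the plus strand, the Acly window at chr11:100528001-100528250 on the minus strand and the Mlxipl window at chr5:135089640-135089889 on the plus strand.
Fasn: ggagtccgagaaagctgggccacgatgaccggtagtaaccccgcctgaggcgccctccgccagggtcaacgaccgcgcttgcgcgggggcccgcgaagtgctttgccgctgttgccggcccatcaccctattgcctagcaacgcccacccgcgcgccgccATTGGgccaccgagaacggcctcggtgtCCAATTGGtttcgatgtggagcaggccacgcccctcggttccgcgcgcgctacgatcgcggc
Pnpla3: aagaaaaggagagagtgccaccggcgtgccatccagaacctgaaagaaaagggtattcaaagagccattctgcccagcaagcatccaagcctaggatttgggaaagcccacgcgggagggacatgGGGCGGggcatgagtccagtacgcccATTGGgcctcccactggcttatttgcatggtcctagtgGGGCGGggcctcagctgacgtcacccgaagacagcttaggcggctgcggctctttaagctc
Acly: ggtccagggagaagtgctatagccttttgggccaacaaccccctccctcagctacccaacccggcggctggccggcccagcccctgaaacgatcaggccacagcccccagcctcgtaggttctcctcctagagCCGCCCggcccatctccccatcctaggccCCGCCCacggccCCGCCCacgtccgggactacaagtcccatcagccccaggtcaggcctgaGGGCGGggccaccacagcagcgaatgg
Mlxipl: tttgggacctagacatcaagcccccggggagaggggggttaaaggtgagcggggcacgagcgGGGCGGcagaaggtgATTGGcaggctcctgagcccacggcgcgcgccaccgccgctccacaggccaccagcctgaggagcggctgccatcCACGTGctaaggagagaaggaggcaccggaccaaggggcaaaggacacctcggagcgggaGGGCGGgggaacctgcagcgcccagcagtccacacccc

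The Fasn window held 3 CCAAT boxes, 2 of which overlap on opposite strands, and none of the other motifs. Pnpla3 had 1 CCAAT box and 2 GC boxes. Acly had 4 GC boxes and no CCAAT box. Mlxipl had 1 E-box, 1 CCAAT box and 2 GC boxes. Over the 13 windows, 7 held a CCAAT box, against 33.8% of 32851 promoter windows of all genes, and 6 held a GC box, against 32.7%. The E-box was in 1 window, against 6.02%, and the SRE-type element in 1, a second Mlxipl start, against 1.05%. A match describes letters and not a bound site.

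Kidney libraries held 863605 to 5691067 counts, with a median of 2248550, and liver libraries 1084591 to 4361115, with a median of 2792768. Tissue labels matched the marker lists. The 8 hepatocyte markers summed to between 94207 and 128268 CPM, the depth-scaled count used for every level here, with TMM scaling, in liver and to at most 1365 CPM in kidney. The 8 kidney tubule markers summed to between 11302 and 57342 CPM in kidney and to at most 189 CPM in liver. Satellite-like gene models, a sign of library quality, took between 0.0350% and 28.99% of kidney counts, with 11 kidney libraries at 5% or more, and between 0.124% and 1.77% of liver counts.

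Fat transcripts set 1 kidney library far apart and marked others more weakly. Kidney AZD8055 replicate 4 had a sum of 30059 CPM over 10 adipocyte markers, against 69.4 to 324 CPM in the other 29 kidney libraries. It held Adipoq, the adiponectin gene, at 2434 CPM, the brown fat uncoupling protein gene Ucp1 at 3546 CPM and Lep, the leptin gene, at 31.3 CPM, and none of the 10 markers was at 0. Its kidney tubule sum of 11302 CPM was the lowest of the 30 kidney libraries. The next kidney library was ascorbyl-palmitate replicate 1, with a sum of 324 CPM, Ucp1 at 24.5 CPM and Adipoq at 12.1 CPM.

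A liver library also stood apart. Liver enzastaurin replicate 2 had an adipocyte sum of 793 CPM, against 13.5 to 26.7 CPM in the other 11 liver libraries. Adipoq was at 68.7 CPM and the adipsin gene Cfd at 394 CPM there, while Ucp1 was at 0. Kidney enzastaurin replicate 1 carried liver transcripts, with a hepatocyte sum of 1365 CPM and Alb at 541 CPM. In bulk tissue, fewer cells of a type and less RNA per cell cannot be told apart.

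**Figure D1:**
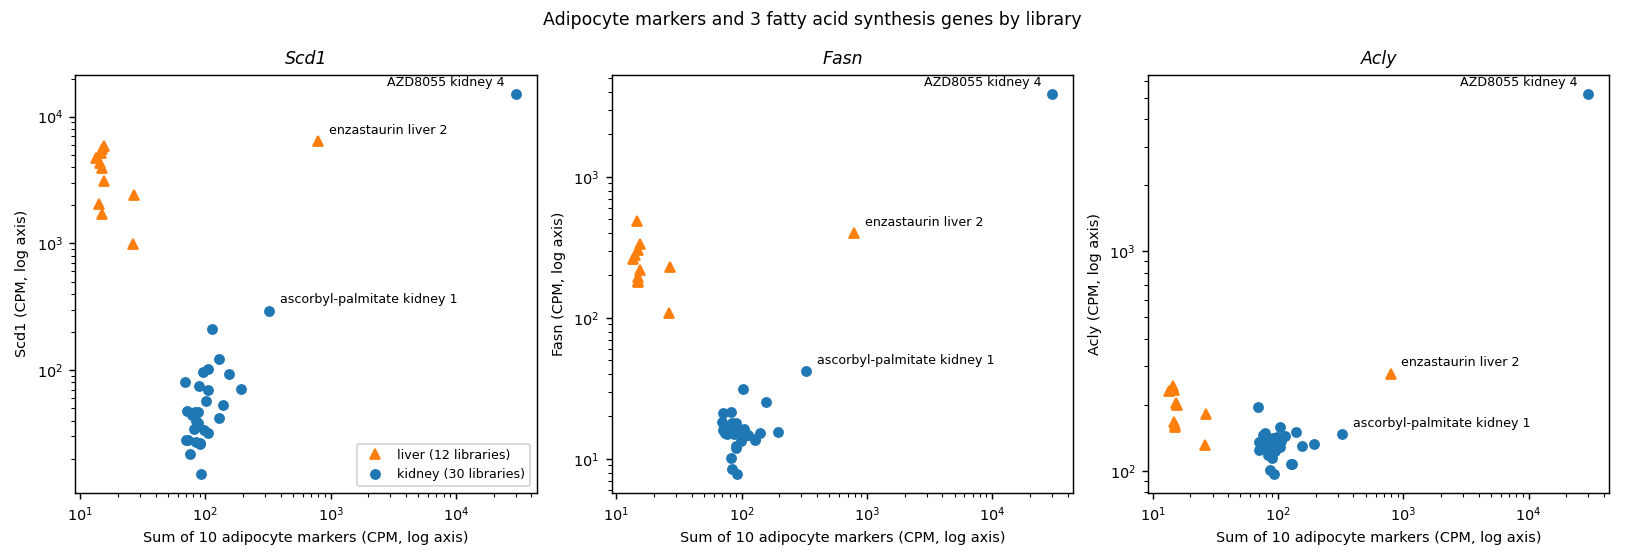
Levels of Scd1, Fasn and Acly (CPM, log axis) against the sum of 10 adipocyte markers (CPM, log axis), with 1 point per library, triangles for liver and circles for kidney. AZD8055 kidney replicate 4 lies at the far right and top with an adipocyte sum of 30059 CPM and Scd1 at 15225 CPM, and enzastaurin liver replicate 2 lies apart from the other liver libraries at 793 CPM.

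In AZD8055 kidney replicate 4, given apart for that reason, every one of the 10 genes was above all other kidney libraries, and 8 were above the highest liver library too. The exceptions to the comparison with liver were Srebf1 at 120 CPM and Mlxipl at 155 CPM. The share of all genes placed this way in that library is not reported here, so these counts have no background. The core enzymes were far higher there. Acly reached 5234 CPM, Acaca 1394 CPM and Fasn 3896 CPM. Control means were 140, 16.7 and 17.7 CPM. Scd1, which puts the first double bond into stearate, reached 15225 CPM, and the elongase Elovl6 reached 739 CPM.

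Thrsp, the thyroid hormone-responsive Spot 14 protein that activates fat synthesis, was at 7379 CPM in that library, 680 times its control mean. The lipid droplet acyltransferase and lipase Pnpla3 was at 316 CPM, while no other library of either tissue passed 5.50 CPM. Me1 and Mlxipl stood out least, at 2.44 and 2.30 times their control means. These are values of 1 library, which also held the fat markers above.

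Kidney comparisons below leave that library out, so AZD8055 has 3 kidney libraries. With it in the fit, 9 of 10 genes were called higher under AZD8055 than in control (adjusted p from 0.00276 to 0.0141), where 5.46% of all 11719 genes tested were called and 3.77% were called higher. The F test for any difference among the 7 groups then also called 9 of 10, against 2.51% of all genes. Mlxipl was the exception in the comparison with control, with a log2 change of -0.05 ± 0.37 (SE).

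Without that library, none of the 10 genes passed an adjusted p of 0.05 by edgeR's quasi-likelihood test in any kidney comparison with control or in the F test among the 7 groups. The share of all 12227 genes called was 2.77% for AS-703026, 0.0573% for ascorbyl-palmitate, 0.204% for AZD8055, 0% for enzastaurin, 0.286% for GDC-0941, 0.0409% for KU0063794 and 1.15% in the F test. At an unadjusted p of 0.05, 0 of 10 genes passed for AS-703026, 2 for ascorbyl-palmitate, 3 for AZD8055, 2 for enzastaurin, 3 for GDC-0941, 2 for KU0063794 and 4 in the F test. Of all genes, 9.75% to 18.1% passed that level in the same 6 comparisons, and 15.7% in the F test. DESeq2 called 1 gene, Scd1, for ascorbyl-palmitate, and 2 genes, Scd1 and Me1, in the test among the 7 groups. The shares above are edgeR's, and DESeq2's share of all genes is not reported here. The 6 comparisons share the control libraries, so their directions are not independent.

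**Figure D2:**
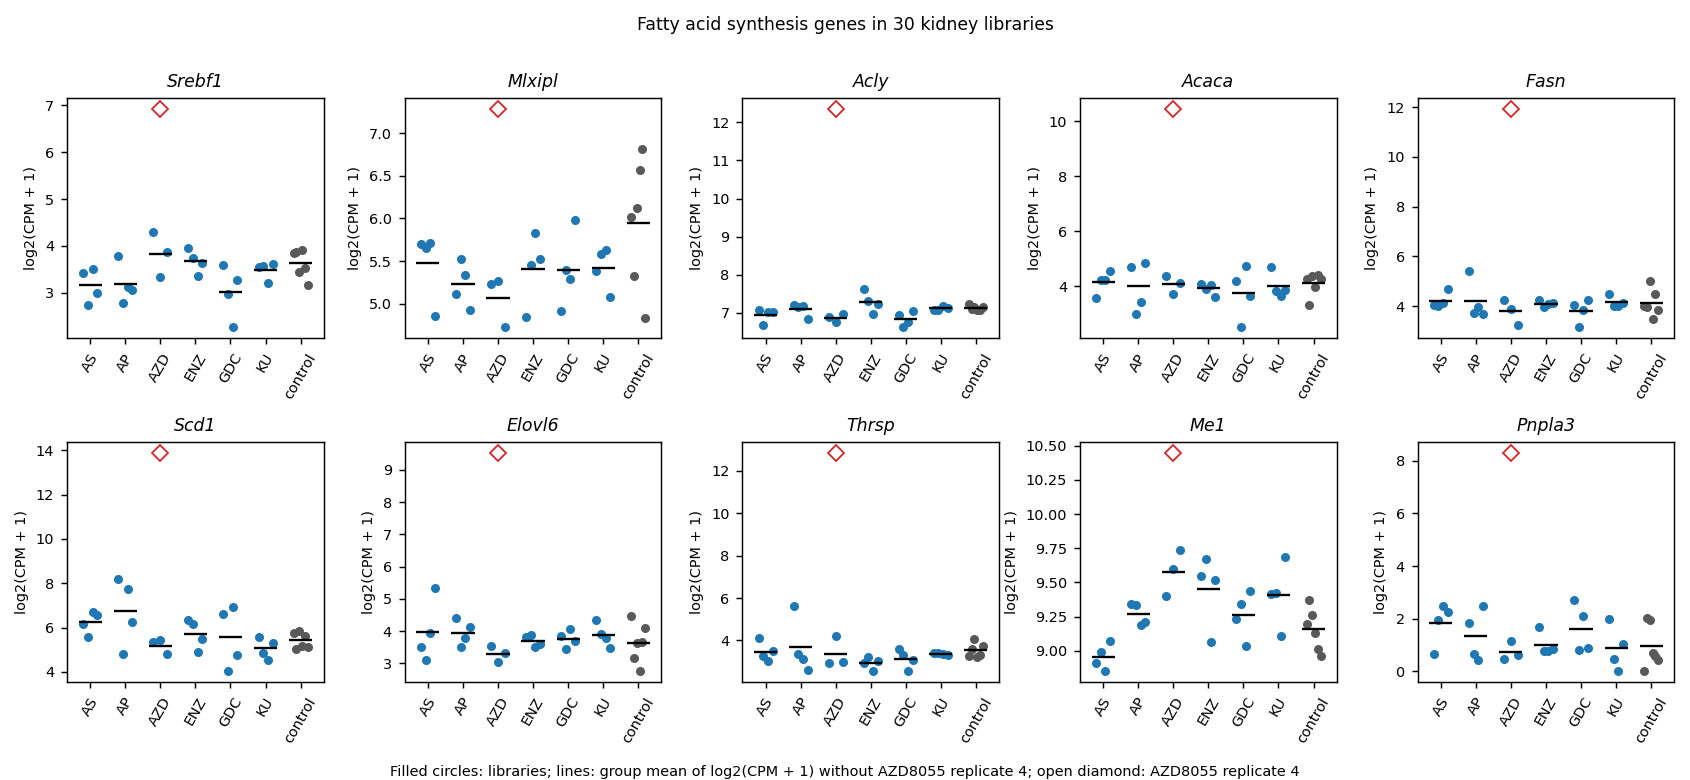
Levels of the 10 genes in 30 kidney libraries as log2(CPM + 1), for AS-703026 (AS), ascorbyl-palmitate (AP), AZD8055 (AZD), enzastaurin (ENZ), GDC-0941 (GDC), KU0063794 (KU) and control, with 1 circle per library and a line at the group mean. The open diamond, AZD8055 replicate 4, is above every other library in all 10 panels, and each vertical axis has its own range.

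**Figure D3:**
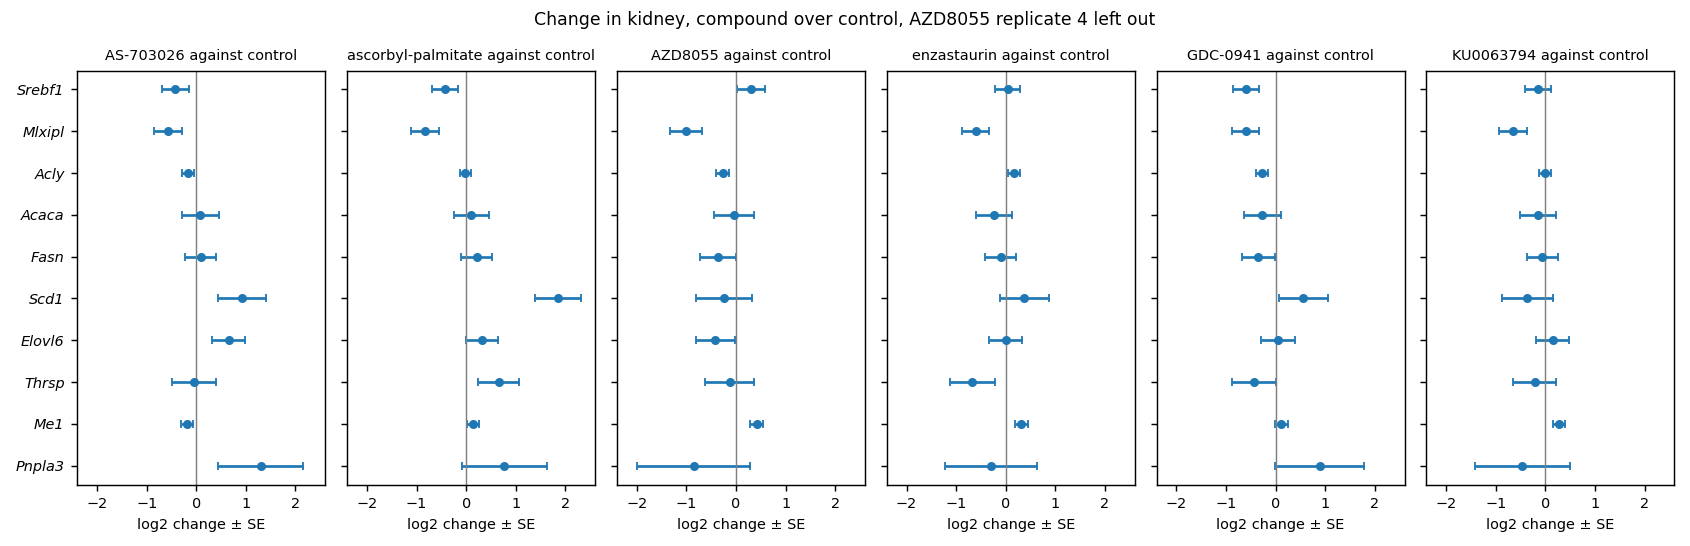
Log2 change of the 10 genes in kidney, each compound over control, from edgeR's fit without AZD8055 replicate 4, with bars of 1 standard error. Mlxipl lies left of 0 in all 6 panels, between -1.01 and -0.57, and Scd1 lies farthest right under ascorbyl-palmitate at 1.85, and none of the changes passed an adjusted p of 0.05.

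Among the regulators, Mlxipl (ENSMUSG00000005373, GRCm38 chromosome 5, 135089890 to 135138382, plus strand) had lower means under all 6 compounds than in control. The 23 compound libraries ran from 25.4 to 62.3 CPM with a median of 40.9 CPM, and the 6 control libraries from 27.5 to 111 CPM with a median of 66.3 CPM. Every compound library lay below the control mean of 67.4 ± 31.8 CPM (SD, n = 6), yet controls 2 and 6, at 38.9 and 27.5 CPM, lay inside the compound range. Of the 6 compounds, only AZD8055 had a library below the lowest control.

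The log2 change of Mlxipl was -1.01 ± 0.32 (SE) under AZD8055 (adjusted p = 0.158), -0.83 ± 0.28 under ascorbyl-palmitate (adjusted p = 0.142) and between -0.65 and -0.57 under the other 4 compounds. Leaving out control 6 gave -1.18 and -1.04 for AZD8055 and ascorbyl-palmitate, with adjusted p of 0.0322 and 0.0294. Neither was called with any other single library left out, where the smallest change was -0.81 for AZD8055 and -0.64 for ascorbyl-palmitate, with adjusted p up to 0.581 and 0.365.

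Srebf1 (ENSMUSG00000020538, chromosome 11, 60199089 to 60222581, minus strand) was read at its 3′ end, which does not separate the isoforms SREBP-1a and SREBP-1c. GDC-0941 kidneys had 11.0, 6.88, 3.80 and 8.72 CPM, and control kidneys ran from 8.05 to 14.1 CPM with a median of 11.99 CPM. All GDC-0941 values were below the control mean of 11.6 ± 2.44 CPM (SD, n = 6) and 2 were below every control. The log2 change was -0.60 ± 0.27 (SE), with an adjusted p of 0.278. Under AZD8055 Srebf1 had 18.7, 9.08 and 13.7 CPM, a log2 change of 0.30 ± 0.28.

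Acly (ENSMUSG00000020917, chromosome 11, 100476353 to 100528000, minus strand) had controls close together, between 135 and 151 CPM with a median of 139 CPM. AS-703026 kidneys had 133, 101, 129 and 130 CPM, AZD8055 kidneys 118, 107 and 124 CPM, and GDC-0941 kidneys 123, 97.1, 107 and 132 CPM. All libraries of these 3 compounds were below every control, as for 1.82%, 2.36% and 1.13% of all genes tested in those comparisons. The differences were small.

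The log2 change of Acly was -0.17 ± 0.12 (SE) for AS-703026, -0.27 ± 0.13 for AZD8055 and -0.28 ± 0.12 for GDC-0941, with adjusted p of 0.473, 0.375 and 0.240. Enzastaurin replicate 1, the library with liver transcripts, had the highest remaining kidney value at 195 CPM. Enzastaurin against control gave a log2 change of 0.16, and of 0.05 without that library.

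Me1 (ENSMUSG00000032418, chromosome 9, 86581371 to 86695953, minus strand) was higher in the 3 AZD8055 kidneys, at 674, 774 and 852 CPM, than in any control. Control values ran from 498 to 661 CPM with a median of 572 CPM. Such a separation upwards was seen for 2.96% of all genes under AZD8055. The log2 change was 0.42 ± 0.13 (SE), with an adjusted p of 0.164. Under KU0063794, at 10 ppm against 20 ppm for AZD8055, Me1 had 681, 687, 550 and 824 CPM and a log2 change against control of 0.27 ± 0.12. As the doses of these 2 mTOR inhibitors differ, their values stand side by side and were not compared.

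AS-703026 kidneys had the lowest mean of Me1, with 481, 508, 460 and 537 CPM, and 2 of 4 were below every control. Its log2 change was -0.19 ± 0.13 (SE), with an adjusted p of 0.442. Across the 7 kidney groups Me1 had an adjusted p of 0.106 in the F test.

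The 2 enzymes of the core, Acaca (ENSMUSG00000020532, chromosome 11, 84129672 to 84401651, plus strand) and Fasn (ENSMUSG00000025153, chromosome 11, 120805846 to 120824547, minus strand), differed little between groups in kidney. Acaca ran from 4.67 to 27.6 CPM over the 23 compound libraries, against 9.10 to 20.2 CPM in control. Fasn ran from 7.87 to 42.1 CPM, against 10.2 to 31.1 CPM in control. Log2 changes lay between -0.27 and 0.10 for Acaca, and between -0.36 and 0.21 for Fasn. The highest Fasn value, 42.1 CPM, was that of ascorbyl-palmitate replicate 1, the library with the second highest adipocyte sum. Without it, the change of Fasn under ascorbyl-palmitate was -0.39 in place of 0.21.

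Scd1 (ENSMUSG00000037071, chromosome 19, 44394455 to 44407879, minus strand) came closest to the threshold in kidney. Its 3′ reads can be shared with close relatives such as Scd2, so its level is uncertain to that degree. Ascorbyl-palmitate kidneys had 295, 26.8, 213 and 75.1 CPM, against 31.8 to 57.3 CPM with a median of 41.0 CPM in control. Thus 3 of the 4 were above every control and 1 was below every control.

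The log2 change of Scd1 under ascorbyl-palmitate was 1.85 ± 0.47 (SE), with an adjusted p of 0.0558. DESeq2 gave 1.84 with an adjusted p of 0.0245. Without replicate 1, which carried fat markers, the change was 1.33 ± 0.48 with an adjusted p of 0.310, and without replicate 3 it was 1.62 with an adjusted p of 0.213. Without replicate 2 or replicate 4 it was 2.18 and 2.06, with adjusted p of 0.0211 and 0.0431. Replicate 3, with Scd1 at 213 CPM, had an adipocyte sum of 113 CPM, within the 70.8 to 139 CPM of the controls. In controls the largest part of that sum was Fabp4, with a mean of 64.1 CPM, while Adipoq had 5.45 CPM. The part of the fat markers in the difference was not tested beyond these fits.

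Under the other compounds Scd1 spread widely. GDC-0941 kidneys had 95.8, 15.2, 122 and 25.9 CPM, so that 2 were above and 2 below every control. AS-703026 kidneys had 70.5, 46.3, 102 and 93.3 CPM, 3 of them above every control, and a log2 change of 0.92 ± 0.48 (SE, adjusted p = 0.316). Across the 7 groups the F test gave an adjusted p of 0.0722, which lay between 0.0178 and 0.267 with 1 library left out and passed 0.05 without ascorbyl-palmitate 2, GDC-0941 2 or GDC-0941 3.

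Elovl6 (ENSMUSG00000041220, chromosome 3, 129532355 to 129638495, plus strand) and Thrsp (ENSMUSG00000035686, chromosome 7, 97412938 to 97417730, minus strand) each had 1 high kidney library. Elovl6 was at 39.4 CPM in AS-703026 replicate 4, against 5.75 to 20.99 CPM in control. The log2 change under AS-703026 was 0.65 ± 0.33 (SE, adjusted p = 0.296), and -0.08 ± 0.30 without that library. AS-703026 replicate 4 also had the collecting duct water channel gene Aqp2 at 1150 CPM, against 46.0 to 67.9 CPM in control. Thrsp was at 47.9 CPM in ascorbyl-palmitate replicate 1, against 8.31 to 15.6 CPM in control. The other 22 compound libraries had Thrsp at 17.5 CPM or less. Without replicate 1 the Thrsp change under ascorbyl-palmitate was -0.55 in place of 0.66.

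Pnpla3 (ENSMUSG00000041653, chromosome 15, 84167837 to 84187236, plus strand) was near the detection limit in both tissues. Outside AZD8055 replicate 4, kidney libraries held between 0 and 20 of its counts. That gave 0 to 5.50 CPM over the 23 compound libraries and 0 to 3.03 CPM in control. In liver it ranged from 0 to 3.06 CPM and did not pass the filter on low counts in the liver comparisons. Outside that library, no difference in Pnpla3 between groups of a tissue was detectable at this depth.

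A wider list of 28 genes of fat synthesis and its control was read beside these. In kidney 24 of them were tested, and none passed an adjusted p of 0.05 in any comparison with control or in the F test. At an unadjusted p of 0.05, between 1 and 3 of the 24 passed in the comparisons with control and 4 in the F test, against 9.75% to 18.1% and 15.7% of all genes. Of the cell type markers, 1 kidney tubule gene was higher and 1 lower under AS-703026. These were Aqp2, with a log2 change of 2.69, and the distal tubule salt transporter gene Slc12a3, with -1.05. The hepatocyte list gave 1 gene higher under AZD8055, Apoh, with a log2 change of 1.51. Adipocyte and blood or immune markers gave none in any kidney comparison with control, and the F test called Alb, Apoh and Aqp2.

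In liver none of the 9 genes tested passed an adjusted p of 0.05 between any 2 compounds or among the 3. Of all 9490 genes, 2.96% were called for AS-703026 against enzastaurin, 3.22% for AS-703026 against GDC-0941, 0% for enzastaurin against GDC-0941 and 3.2% in the F test. At an unadjusted p of 0.05, 0 of 9 passed in each of these, against 16.2%, 16.1%, 8.03% and 16.8% of all genes. DESeq2 also called 0 of 9 in each. The lowest adjusted p among the 9 genes was 0.340, for Acaca in AS-703026 against GDC-0941.

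**Figure D4:**
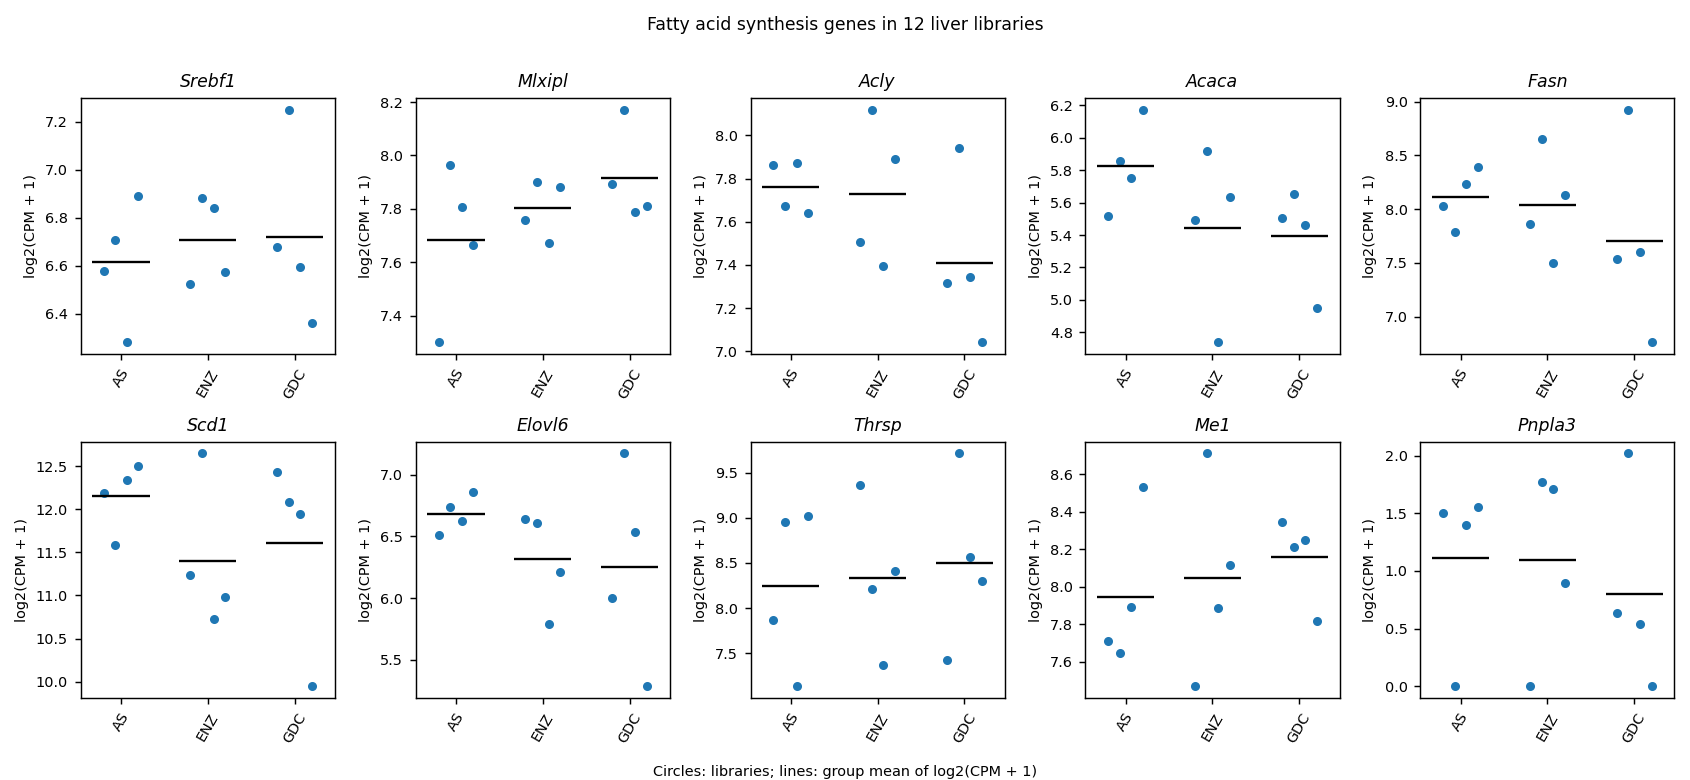
Levels of the 10 genes in 12 liver libraries as log2(CPM + 1), for AS-703026 (AS), enzastaurin (ENZ) and GDC-0941 (GDC), with 1 circle per library and a line at the group mean. The groups overlap in every panel, and GDC-0941 holds both the highest and the lowest Fasn library, at 486 and 107 CPM.

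Scd1 varied widely in liver. AS-703026 livers had 4682, 3082, 5166 and 5822 CPM and enzastaurin livers 2422, 6420, 1700 and 2028 CPM. GDC-0941 livers had 5546, 4334, 3954 and 987 CPM. Each group overlapped the others. The single high enzastaurin value, 6420 CPM, belonged to replicate 2, the library with fat markers.

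AS-703026 against enzastaurin gave a log2 change of 0.60 ± 0.45 (SE, adjusted p = 0.571) for Scd1. Without enzastaurin replicate 2 it was 1.17 ± 0.41, with an adjusted p of 0.193. When the satellite-like share entered the fit it was -0.06, and this share was higher in all 4 AS-703026 livers (0.857% to 1.77%) than in the other 8 (at most 0.645%). Enzastaurin replicate 2 was the highest of the 4 enzastaurin livers for 8 of the 10 genes, and of all 12 livers for 3, Acly at 277 CPM, Scd1 at 6420 CPM and Me1 at 418 CPM. Some of the 8 were close to the next enzastaurin liver. Srebf1 had 117 against 114 CPM, Mlxipl 238 against 235 CPM and Pnpla3 2.42 against 2.28 CPM. The share of all genes placed this way is not reported here, so these counts have no background.

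Fasn in liver had 260, 220, 301 and 336 CPM under AS-703026, 231, 402, 180 and 280 CPM under enzastaurin, and 184, 486, 194 and 107 CPM under GDC-0941. AS-703026 against GDC-0941 gave 0.21 ± 0.35 on the log2 scale. Within GDC-0941, replicate 2 was the highest of 12 livers for 5 of 9 genes and replicate 4 the lowest for 4. No share of all genes at these extremes is reported here, so the ranks have no background. Replicate 2 over replicate 4 was 4.52-fold for Fasn, 4.39-fold for Scd1, 3.77-fold for Elovl6 and 2.67-fold for Thrsp. Their adipocyte sums were 14.5 and 26.3 CPM, where the 11 livers other than enzastaurin replicate 2 ran from 13.5 to 26.7 CPM. The part of fat transcripts in this spread was not tested.

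Acaca had 44.8, 57.1, 52.9 and 71.2 CPM in AS-703026 livers, 44.1, 59.4, 25.7 and 48.6 CPM in enzastaurin livers, and 44.3, 49.3, 43.1 and 29.9 CPM in GDC-0941 livers. The log2 change was 0.45 ± 0.22 (SE) for AS-703026 against GDC-0941 and 0.35 ± 0.22 for AS-703026 against enzastaurin (adjusted p = 0.486). Mlxipl and Srebf1 were steady. Mlxipl lay between 157 and 287 CPM and Srebf1 between 76.7 and 151 CPM over the 12 livers, with changes of at most 0.21 in size on the log2 scale.

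Spread between libraries of 1 group was wide for 4 of the genes in liver. The SD of log2(CPM + 1) within liver groups was 0.89 for Thrsp, 0.85 for Scd1, 0.61 for Fasn and 0.52 for Elovl6. The median over 9073 genes with a mean of at least 5 CPM was 0.28, and the 4 genes stood at the 98.1, 97.9, 93.8 and 90.1 percentile of that distribution. Mlxipl, at 0.20, and Srebf1, at 0.28, stood at the 27.3 and 52.2 percentile. In kidney the SD was 0.87 for Scd1 and 0.62 for Thrsp, against a median of 0.32 over 9373 genes. Acly at 0.16 and Me1 at 0.18 were among the steadiest, at the 2.25 and 5.12 percentile. These percentiles are not matched for level. In kidney Acly and Me1 had means of 133 and 628 CPM, and Thrsp had 10.6 CPM.

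Of the wider list, 26 of 28 genes were tested in liver. AS-703026 against enzastaurin called 2 of them, Acss2, which makes acetyl-CoA from acetate, and Acot1, a cytosolic acyl-CoA thioesterase. Acss2 had 233, 213, 229 and 207 CPM under AS-703026, 154, 151, 133 and 162 CPM under enzastaurin, and 167, 205, 186 and 127 CPM under GDC-0941. It was higher under AS-703026 than under enzastaurin by 0.57 ± 0.13 (SE) on the log2 scale (adjusted p = 0.0272).

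Acot1 had 10.4, 39.2, 22.6 and 37.8 CPM under AS-703026, 46.3, 71.8, 77.7 and 89.9 CPM under enzastaurin, and 102, 61.2, 52.6 and 52.7 CPM under GDC-0941. All AS-703026 livers were below all others. Its log2 change was -1.41 ± 0.33 (adjusted p = 0.0321) against enzastaurin and -1.31 ± 0.33 (adjusted p = 0.0439) against GDC-0941. Acot1 has a near-identical neighbour family, so reads may be shared between copies.

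Neither call held under every alternative, though each kept its direction with 1 library left out. With the satellite-like share in the fit, Acss2 had 0.61 (adjusted p = 0.542) and Acot1 -1.34 (adjusted p = 0.584) against enzastaurin. Acot1 against GDC-0941 then had -1.26 (adjusted p = 0.394). Against enzastaurin the standard errors were 0.23 for Acss2 and 0.53 for Acot1, where they were 0.13 and 0.33 without the share. The share was higher in every AS-703026 liver than in any other liver. That fit could therefore hardly separate it from the compound, and the loss of these calls under it decides little. Both calls against enzastaurin were lost without AS-703026 1 or 3 or enzastaurin 2, 3 or 4, with adjusted p up to 0.0773 for Acss2 and 0.119 for Acot1. Acot1 against GDC-0941 was lost without AS-703026 1 or 3 or any single GDC-0941 library, with adjusted p up to 0.155, and also in a fit of only the groups compared (adjusted p = 0.0667).

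Markers of blood and inflammation also differed in AS-703026 livers. Of 8 blood and immune markers, 4 were higher than in enzastaurin livers, S100a8, S100a9, Hbb-bs and Hba-a1, and the S100a8 and S100a9 pair, which neutrophils carry, was higher than in GDC-0941 livers too. Their log2 changes were 3.79 and 3.40 against enzastaurin. Of the 8 hepatocyte markers, the fibrinogen genes Fga and Fgb were called higher than in enzastaurin livers, by 1.22 and 1.21. The median change of the 8 was -0.24 and the lowest -0.74, and 0 were called lower. Against GDC-0941 livers 2 of the 8 were also called higher and 0 lower, with changes from -0.71 to 1.61. The part of these markers in the values of the fat synthesis genes was not tested.

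Between tissues, under the 3 compounds given in both and with 12 libraries each, 8 of the 10 genes were higher in liver than in kidney, Me1 was lower and Pnpla3 did not differ past the threshold. Tissue differences were common, with 77.4% of all 12262 genes called, 38.2% higher and 39.2% lower in liver. The largest differences were those of Scd1, at 5.85 ± 0.38 (SE) on the log2 scale, Thrsp, at 5.49 ± 0.31, and Fasn, at 4.05 ± 0.21. Srebf1 followed with 3.49 ± 0.13, ahead of Elovl6 with 2.63 ± 0.22, Mlxipl with 2.34 ± 0.13 and Acaca with 1.65 ± 0.19. Pnpla3 had -0.43 ± 0.50 (adjusted p = 0.435). On library totals it had -1.08 (adjusted p = 0.0442), where the median of all genes was -0.72, against -0.05 with TMM.

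Every liver library lay above every kidney library for 6 genes, Srebf1, Mlxipl, Acaca, Fasn, Scd1 and Thrsp, as for 19.1% of all genes. Fasn averaged 265 ± 105 CPM in liver and 16.0 ± 3.92 CPM in kidney (SD, n = 12 each). Scd1 averaged 3845 ± 1779 CPM in liver and 66.3 ± 34.2 CPM in kidney. Thrsp averaged 378 ± 213 CPM in liver and 8.52 ± 3.18 CPM in kidney. Acaca came close to overlap, with a lowest liver value of 25.7 CPM and a highest kidney value of 25.5 CPM.

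Me1 went the other way. It averaged 272 ± 72.9 CPM in liver and 607 ± 117 CPM in kidney (SD, n = 12 each), and every liver library was below every kidney library, as for 16.5% of all genes. Its log2 difference was -1.15 ± 0.13 (SE), with an adjusted p of 7.44e-09. The highest liver value, 418 CPM, was that of enzastaurin replicate 2, and without it the difference was -1.28.

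Acly, the step between citrate and acetyl-CoA, differed less between tissues. Liver libraries ran from 131 to 277 CPM with a median of 201 CPM, and kidney libraries from 97.1 to 195 CPM with a median of 129 CPM, so the tissues overlapped. The log2 difference was 0.62 ± 0.10 (SE) with TMM scaling (adjusted p = 8.13e-06) and -0.06 with plain library totals (adjusted p = 0.636). Relative to the median of all genes, Acly was higher in liver under both scalings. No other of the 10 genes changed sign between TMM, RLE and library totals.

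**Figure D5:**
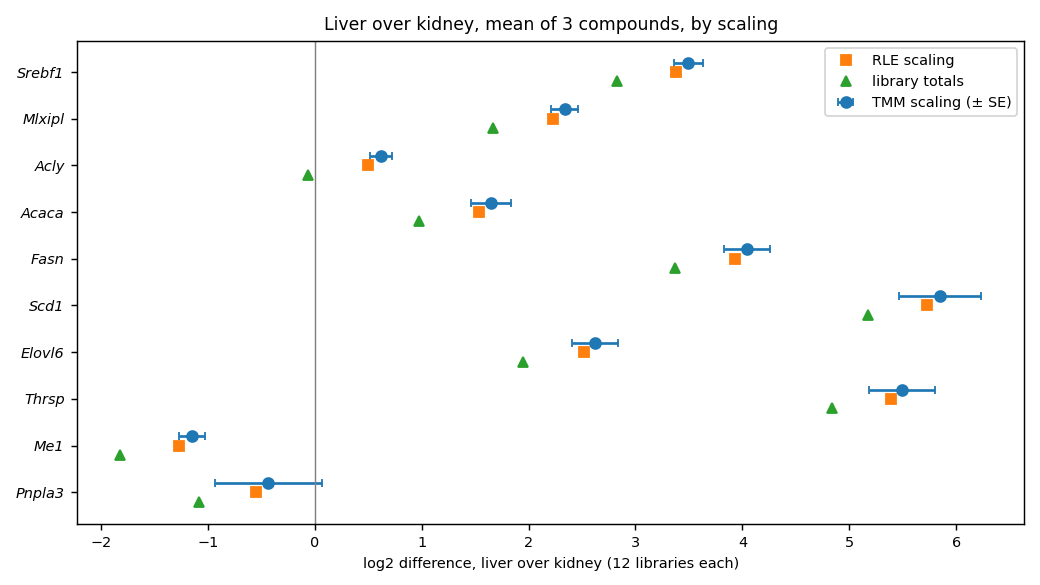
Log2 difference of the 10 genes, liver over kidney, with 12 libraries per tissue, for TMM scaling (circles, bars of 1 standard error), RLE scaling (squares) and library totals (triangles). Scd1 and Thrsp lie farthest right at 5.85 and 5.49, Me1 lies at -1.15, and Acly moves across 0 to -0.06 when library totals are used.

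Of the wider list, 18 of 26 tested genes were higher in liver and 6 lower. The fatty acid desaturase Fads1 was higher by 3.22, the triglyceride-making Dgat2 by 3.59, Insig2, which holds SREBP in the endoplasmic reticulum, by 3.63 and the citrate carrier Slc25a1 by 2.15 on the log2 scale. The elongase Elovl5 was higher by 3.42. No gene of the 10 had a compound by tissue interaction past the threshold, with a lowest adjusted p of 0.616, where 0.163% of all 12262 genes were called. None of the 10 passed an unadjusted p of 0.05, against 10.0% of all genes.

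Genes outside the lists that followed the 10 most closely were found from the mean of the members' z-scores. Over 29 kidney libraries, high Pearson correlations among 9321 genes with a mean of at least 5 CPM included those of Ndst1 (0.660), Il17re (0.599), Vwa2 (0.593) and Ap1s3 (0.591). Over 12 liver libraries and 9013 genes the highest were those of 5730480H06Rik (0.859), Col4a3bp (0.789), Kctd20 (0.788), Ube2d1 (0.775) and Fmo2 (0.762). These describe libraries that share depth and quality differences, and no test was made of them.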

How the data were processed

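Counts per gene for 42 CEL-seq libraries were used as deposited by the authors, as raw counts. Per the submitters' processing notes, STAR 2.5.2b, featureCounts 1.5, Trimmomatic 0.32 and bcl2fastq 1.8.4 were used with the mm10 genome. Strand setting, annotation release and handling of molecular identifiers: not given in the sources used here. Symbols and coordinates come from GENCODE M21 (GRCm38), which matched 42548 of 43629 genes. All columns were matched to samples by name, with 0 unused.

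The genes and lists were chosen with earlier results of these data known. All 10 members are described in every comparison, and of the other lists up to 6 genes past the threshold per list, by smallest p. Some genes these rules name are not reported here. For the tissue difference the marker lists are given as sums. Counts were scaled by TMM, filtered by filterByExpr and fitted with edgeR's quasi-likelihood test (edgeR 4.0.16, R 4.3.3), 1 fit per tissue, with Benjamini-Hochberg adjustment over all genes and a threshold of 0.05. The kidney fit leaves out AZD8055 replicate 4. The tissue and interaction fits hold the 24 libraries of the 3 shared compounds. p-values measure the spread between these libraries.

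Kidney and liver fits had biological coefficients of variation of 0.255 and 0.191. The lowest chi-square per gene between 2 libraries was 4.10, so each counted as 1 sample. Same-numbered libraries did not deviate together (mean correlation 0.004 in kidney and -0.019 in liver), so numbers did not pair them. Between kidney and liver of the same compound the mean was 0.017. Sample titles do not say whether both organs came from the same mice, and the tissue fit treats the 24 libraries as independent. The fits were tested on simulated data. Alternatives were limma voom with sample weights (limma 3.58.1), no filter on low counts, RLE scaling, DESeq2 1.42.0, the replicate block, the satellite-like share as a covariate, only the groups compared, AZD8055 replicate 4 kept, libraries at or above 5% satellite-like counts left out, and each library left out. Scaling by library totals was added after the data were seen. The 13 satellite-like models were Gm10800 and those with 5% or more of their 24-base words in it. Depth limits genes such as Pnpla3, and counts cover counting error only where no replicate is given.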

Additional observations from a re-analysis of the deposited data

Results flagged for a closer look

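Each of the 10 genes was checked in each of the 10 groups for a highest or lowest library far from the rest of its group, and 18 of 100 sets were picked out. The rule was set for about 5% of sets by chance, and 9 of the 18 came from 1 library. Genes of 1 library are not independent, so the 18 sets are no test against that rate. In kidney AZD8055 replicate 4 these were Srebf1 at 120 CPM, Mlxipl at 155, Acly at 5234, Acaca at 1394, Fasn at 3896, Scd1 at 15225, Elovl6 at 739, Thrsp at 7379 and Pnpla3 at 316. Its adipocyte marker sum was 30059 CPM, and the part of fat tissue in these values was not tested. Me1, at 1397 CPM, was also the highest but not far enough from the other 3 to be picked out.

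The other 9 were spread over 7 libraries. Kidney ascorbyl-palmitate replicate 1 was high for Fasn (42.1 CPM, next 14.9) and Thrsp (47.9 CPM, next 9.31), with an adipocyte sum of 324 CPM. Liver enzastaurin replicate 2 was high for Scd1 (6420 CPM, next 2422), with an adipocyte sum of 793 CPM. Kidney AS-703026 replicate 4 was low for Mlxipl (28.0 CPM, next 49.1) and high for Fasn (25.2 CPM, next 16.3). Kidney AS-703026 replicate 2 was low for Acly (101 CPM, next 129), and its satellite-like share was 28.99%. Kidney KU0063794 replicate 1 was high for Acaca (25.3 CPM, next 13.5). Pnpla3 was high in kidney enzastaurin replicate 1 (2.19 CPM, next 0.801) and low in liver AS-703026 replicate 2 (0 CPM, next 1.64), where 3 counts and 0 counts lie behind the values.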

How the results depend on the processing

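The number of the 10 genes called was 0 in every comparison within a tissue, and rose above 0 in some alternatives. DESeq2 called 1 for ascorbyl-palmitate and 2 among the 7 kidney groups. With no filter on low counts the calls were 1 for AS-703026 in kidney, 2 for ascorbyl-palmitate, 1 for AZD8055, 3 among the kidney groups, 1 for AS-703026 against enzastaurin in liver and 1 among the liver groups. The satellite-like covariate called 1 for ascorbyl-palmitate and 1 among the kidney groups, and leaving out high-satellite libraries called 1 for ascorbyl-palmitate. With AZD8055 replicate 4 kept, 9 were called for AZD8055 and 9 among the groups, against 5.46% and 2.51% of all genes. For the other alternatives the share of all genes called is not reported here, so their counts have no background. Leaving out 1 library at a time gave 0 to 1 for ascorbyl-palmitate, AZD8055 and the kidney groups. It gave 9 of 10 in the tissue difference each time. The replicate block called 0 of the 10 in every comparison within a tissue. Under it the liver calls of Acss2 and Acot1 were lost, while their changes stayed alike. Acss2 in AS-703026 against enzastaurin livers had 0.57 (adjusted p = 0.0545), and 0.57 (adjusted p = 0.0272) without the block. Acot1 had -1.42 against enzastaurin (adjusted p = 0.0685) and -1.35 against GDC-0941 (adjusted p = 0.0824). Without the block the changes of Acot1 were -1.41 and -1.31, with adjusted p of 0.0321 and 0.0439. Numbers did not pair samples here.

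Signs turned for AZD8055 against control with replicate 4 kept, to 3.33 for Acly, 4.45 for Acaca, 5.83 for Fasn, 6.50 for Scd1, 4.00 for Elovl6, 7.42 for Thrsp and 6.02 for Pnpla3, which is the construction of that alternative. Acaca under AZD8055, at -0.03, was 0.11 with the replicate block and ranged from -0.22 to 0.14 when 1 library was left out. Thrsp under AZD8055, at -0.13, ranged from -0.68 to 0.14. Scd1 in AS-703026 against enzastaurin livers was -0.064 with the satellite-like covariate, and Acly between tissues was -0.059 on library totals. On library totals the median of all genes moved to -0.72, against -0.05 with TMM. For the other 3 the cause was not tested. For the 42 results that passed an unadjusted p of 0.05, were called in some alternative or belong to the tissue difference or to AZD8055 in kidney, 335 of 372 values under other settings, and 724 of 737 with 1 library left out, kept their direction and their side of the threshold. Over all 97 log2 changes of the 10 genes, 49 of 874 values under other settings and 69 of 1043 with 1 library left out turned sign. These came from 47 changes, of which 1, Acly between tissues, was called. Among the others, Fasn and Thrsp under ascorbyl-palmitate, at 0.21 and 0.66, were -0.39 and -0.55 without replicate 1. Elovl6 under AS-703026, at 0.65, was -0.08 without replicate 4 and -0.38 without high-satellite libraries, where replicate 1 was the only AS-703026 library left. Scd1 under GDC-0941 in kidney, at 0.55, was -0.28 by limma voom with sample weights and -0.998 without high-satellite libraries. The latter fit kept only GDC-0941 replicates 2 and 4, both below every control for Scd1. Depth limits Pnpla3, with 0 to 20 counts a library, and the low kidney levels of Srebf1, Acaca, Fasn, Elovl6 and Thrsp.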

Other observations

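In ascorbyl-palmitate and in GDC-0941 kidneys the 2 libraries highest for Scd1 were also the 2 highest for Acot1, a pattern chosen after the values were seen and not tested. Ascorbyl-palmitate replicates 1 and 3 had Scd1 at 295 and 213 CPM and Acot1 at 250 and 210 CPM, and replicates 2 and 4 had Scd1 at 26.8 and 75.1 CPM and Acot1 at 101 and 103 CPM. GDC-0941 replicates 1 and 3 had Scd1 at 95.8 and 122 CPM and Acot1 at 170 and 269 CPM, and replicates 2 and 4 had Scd1 at 15.2 and 25.9 CPM and Acot1 at 86.8 and 74.5 CPM. In control, Scd1 lay between 31.8 and 57.3 CPM and Acot1 between 54.6 and 131 CPM. The satellite-like share was 18.8% and 7.82% in GDC-0941 replicates 1 and 3, and 0.353% and 0.061% in ascorbyl-palmitate replicates 1 and 3.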
